A study of Mus musculus with 4 samples.

Results

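Milk-lipid secretion and milk protein genes are a group of 10 genes, taken by symbol from the 23361 genes of the deposited table. They are the milk-fat globule genes Xdh, Plin2, Btn1a1 and Mfge8, the lipid uptake genes Fabp3, Lpl and Cd36, and the milk protein genes Wap, Csn3 and Lalba. All 10 were found. They were selected on their function and with their levels in the High and Low libraries already known, so the fold changes given for them are descriptions and carry no p-value. RNA was sequenced from cultured mammary tumour cells of the Chaos3 mouse, on the C3HeB/FeJ strain background, in 2 groups of 2 libraries. The High group comprised clones AB-C1 and AB-C2, with a library for each clone. These cells of the 23116 MT line had been transduced with a lentiviral Arid1a expression vector. The Low group comprised duplicates of the 23116 MT cells, titled UT, in which Arid1a is low per the labels. Both groups thus share the Chaos3 mutation, which lies in the DNA helicase gene Mcm4. The protein made from Arid1a belongs to the SWI/SNF (BAF) chromatin remodellers.

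In the lactating mammary gland, luminal secretory cells synthesise triglycerides, store them in cytoplasmic droplets and release these droplets wrapped in apical plasma membrane as milk-fat globules. The droplet coat protein encoded by Plin2, the membrane protein butyrophilin (Btn1a1) and xanthine oxidoreductase (Xdh) form the contact between droplet and membrane. Prolactin, acting through the kinase Jak2 and the transcription factor Stat5a, drives the milk protein genes together with glucocorticoid and the transcription factor Elf5.

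The libraries held 16523077 and 24307249 fragments in the High group and 13889856 and 28110812 in the Low group. Within the High pair the biological coefficient of variation was 42.8%, against 17.3% within the Low pair. Arid1a itself was at 49.8 and 58.3 CPM in the libraries labelled High and at 82.2 and 94.2 CPM in those labelled Low (CPM, counts scaled to a common library size with TMM factors). It was thus lower under the High label, with a log2 fold change of -0.71 ± 0.23 (SE) that did not pass edgeR's quasi-likelihood test (adjusted p = 0.165). It is unknown whether reads from the vector entered the Arid1a count. Whether the labels, or the 2 condition names of the deposited table (Arid1a and Ctl) by which its rows were assigned to them, are exchanged was not tested. All directions below are those of the labels, and an exchange would turn every one of them. Markers of the labelled epithelial cell type were present. Krt8, a luminal keratin, was at 224 and 879 CPM in the libraries labelled High and 647 and 443 CPM in those labelled Low. Its partner keratin gene Krt18 was at 184 and 576 CPM (High) and 534 and 359 CPM (Low), and the E-cadherin gene Cdh1 at 263 and 386 CPM (High) and 130 and 146 CPM (Low). Of the 7 basal markers, 1 fell (Acta2) and 6 did not pass. Krt14, a basal keratin, was at 1271 and 2647 CPM in the libraries labelled High and 973 and 614 CPM in those labelled Low, and did not pass. Trp63, a transcription factor of basal cells, was at 5.90 and 22.5 CPM (High) and 2.13 and 1.28 CPM (Low), and did not pass either. Acta2, the smooth muscle actin of contractile myoepithelial cells, fell to 22.7 and 8.63 CPM in the libraries labelled High, against 1320 and 1153 CPM in those labelled Low. Its log2 fold change was -6.31 ± 0.57 (SE, edgeR adjusted p = 0.00976), or 79.2-fold lower. Over the 6 alternatives that kept every library, its adjusted p was 1.55e-44 to 0.0108. In bulk RNA, fewer cells of a type and less RNA per cell cannot be told apart.

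The promoters of the genes differed in their content of CG dinucleotides, and 4 are shown because they contrast a pair of genes with fragments in every library and a pair with none. RefSeq sequences (GRCm38.p6, the assembly also called mm10) matched 6 of the 10 genes. None was available for Xdh, Btn1a1, Lpl or Csn3, which the CG counts therefore do not cover. For each of the 6, the 250 bases before the annotated start were read. They run 5′ to 3′ on the gene's strand, with each CG in capitals. Plin2 (minus strand, chr4:86670060-86670309) had 6 CG and Mfge8 (minus strand, chr7:79149061-79149310) had 12. Wap (minus strand, chr11:6638650-6638899) had 1 and Lalba (minus strand, chr15:98482684-98482933) had 2.
Plin2: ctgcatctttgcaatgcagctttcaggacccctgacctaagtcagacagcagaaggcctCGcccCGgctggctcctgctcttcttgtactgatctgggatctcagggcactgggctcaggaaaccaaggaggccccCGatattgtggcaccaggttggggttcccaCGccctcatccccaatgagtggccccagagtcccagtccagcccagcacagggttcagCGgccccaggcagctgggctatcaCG
Mfge8: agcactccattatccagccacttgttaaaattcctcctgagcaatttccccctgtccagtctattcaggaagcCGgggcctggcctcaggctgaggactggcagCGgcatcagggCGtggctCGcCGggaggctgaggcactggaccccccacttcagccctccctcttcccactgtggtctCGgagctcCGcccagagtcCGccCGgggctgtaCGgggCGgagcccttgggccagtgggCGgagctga
Wap: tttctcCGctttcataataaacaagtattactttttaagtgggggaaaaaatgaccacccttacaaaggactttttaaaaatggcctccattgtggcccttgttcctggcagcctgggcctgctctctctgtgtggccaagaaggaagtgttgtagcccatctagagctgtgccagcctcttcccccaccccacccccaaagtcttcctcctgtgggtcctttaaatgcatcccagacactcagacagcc
Lalba: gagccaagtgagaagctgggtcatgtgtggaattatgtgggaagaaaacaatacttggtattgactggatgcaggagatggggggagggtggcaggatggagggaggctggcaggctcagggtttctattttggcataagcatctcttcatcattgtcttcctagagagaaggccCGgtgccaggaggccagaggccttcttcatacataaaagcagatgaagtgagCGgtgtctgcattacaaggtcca
The other promoters with a sequence were those of Fabp3, with 17 CG, and Cd36, with 3. One start was read for each gene. The Cd36 window (minus strand, chr5:17835897-17836146) lies inside the span of the gene given below, so it belongs to an internal start. The 3 genes with no fragment in any library (Wap, Lalba and Cd36) therefore had 1 to 3 CG in this window, and the 3 with fragments in every library (Plin2, Mfge8 and Fabp3) had 6 to 17. Over all genes of the table with a sequence, promoters of genes with no fragment had a median of 2 CG, and 66.5% of them held 3 or fewer. Promoters of tested genes had a median of 16 CG, and 10.4% held 3 or fewer. A sequence of the form bound by STAT5 factors, TTCNNNGAA, which reads the same on both strands, occurred in 0 of the 6 windows and in 7.0% of the 32851 promoters of this length. TATAAA, searched on both strands, occurred in 0 of the 6 and in 12.4% of all. These matches describe letters in a short window only.

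Of the 10 genes, 6 passed the filter on low counts (Xdh, Plin2, Btn1a1, Fabp3, Lpl and Mfge8) and 4 did not (Cd36, Wap, Csn3 and Lalba). Xdh rose in the libraries labelled High, and the other 5 tested genes did not pass. The share of all 12987 tested genes called higher was 1.14%, and 2.47% were called in either direction. Since the genes were picked with this contrast known, nothing is read from their count. DESeq2 called 3 of the 6 higher (Xdh, Btn1a1 and Lpl), against 4.72% of all genes. No member was called lower by edgeR (0, and 0 at an unadjusted p under 0.05), by DESeq2 (0) or by limma-voom (0). Over all genes, edgeR called 1.33% lower, DESeq2 527 genes and limma-voom 145 genes. At an unadjusted p under 0.05 (edgeR), 18.1% of all tested genes passed in either direction. A count of 0 among 6 genes is therefore not read as a result on direction. Among the 6, 4 had a log2 fold change above 0 and 2 below, with a median of 1.05, beside a median of 0.03 over all tested genes. In 3 of the 6 (Xdh, Btn1a1 and Lpl) both High libraries lay above both Low libraries, and in 0 of the 6 both lay below. Over all tested genes these shares were 25.9% and 25.1%. Without a High library the spread comes from the Low pair alone, and edgeR then called 1179 (without library 1) and 1406 (without library 2) of all genes higher, against 148 with all libraries. Without a Low library it comes from the High pair alone, and edgeR called 0 genes higher and 0 lower. For the members, values without a High library are therefore given below as fold changes only.

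**Figure D1:**
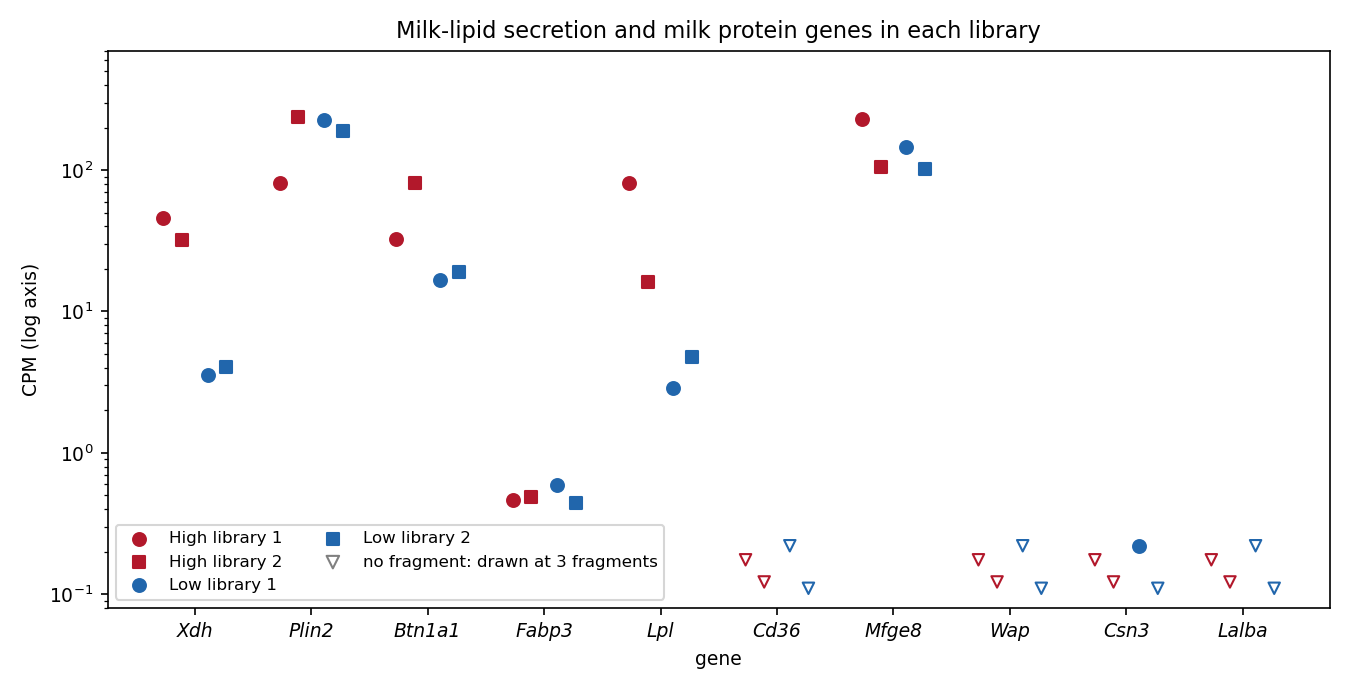
CPM on a log axis (y) of the 10 genes (x) in each of the 4 libraries, 2 labelled High (red) and 2 labelled Low (blue). Open triangles mark a library with no fragment, drawn at the CPM that 3 fragments would have there. Xdh, Btn1a1 and Lpl had both High libraries above both Low libraries, and Wap, Lalba and Cd36 had no fragment anywhere.

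Xdh (ENSMUSG00000024066.9, minus strand of chromosome 17, 73883895 to 73950196, mm10) encodes xanthine oxidoreductase, an enzyme of purine breakdown that is also a structural part of milk-fat secretion. It was at 46.03 and 31.9 CPM in the libraries labelled High, from 788 and 783 fragments. In those labelled Low it was at 3.53 and 4.06 CPM, from 48 and 111 fragments. Both High libraries stood above both Low libraries, 12.1-fold and 8.4-fold over the Low mean. The groups averaged 39.0 ± 10.01 CPM (High) and 3.79 ± 0.378 CPM (Low; SD, n = 2 each), a log2 fold change of 3.35 ± 0.34 (SE), or 10.2-fold. The High libraries differed 1.44-fold from each other and the Low libraries 1.15-fold. The call was lost when either Low library was left out, as was every call, while the log2 fold change stayed at 3.26 and 3.45. The gene overlaps a processed pseudogene on the same strand, so part of its fragments could have been assigned there.

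Plin2 (ENSMUSG00000028494.12, minus strand of chromosome 4, 86648386 to 86670060), also called adipophilin, coats lipid droplets in most cell types and the fat globule core in milk. It was at 80.8 and 236 CPM in the libraries labelled High, from 1384 and 5806 fragments. It was at 228 and 189 CPM in those labelled Low, from 3102 and 5171 fragments. The High libraries thus lay on opposite sides of the Low pair, the first 2.58-fold below the Low mean and the second 1.13-fold above it. Such a split was seen in 16.8% of tested genes. The means were 159 ± 110 CPM (High) and 209 ± 27.4 CPM (Low; SD, n = 2 each), and the log2 fold change of -0.39 ± 0.53 (SE) was within the spread of the High pair. It was -1.37 without High library 2 and 0.19 without High library 1.

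Btn1a1 (ENSMUSG00000000706.16, minus strand of chromosome 13, 23456992 to 23465901) encodes butyrophilin, a major membrane protein of the milk-fat globule. It was at 32.4 and 81.2 CPM in the libraries labelled High, from 554 and 1994 fragments. In those labelled Low it was at 16.7 and 19.2 CPM, from 227 and 524 fragments. Both High libraries were above both Low libraries, by 1.81-fold and 4.53-fold over the Low mean. The means were 56.8 ± 34.5 CPM (High) and 17.9 ± 1.76 CPM (Low; SD, n = 2 each), with a log2 fold change of 1.66 ± 0.45 (SE) that edgeR did not call. It was 0.84 without High library 2 and 2.18 without High library 1.

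Mfge8 (ENSMUSG00000030605.15, minus strand of chromosome 7, 79133768 to 79149060) encodes lactadherin, a secreted protein on the globule surface that also bridges apoptotic cells to phagocytes. It was at 230 and 105 CPM in the libraries labelled High, from 3935 and 2581 fragments. The level in those labelled Low was 146 and 103 CPM, from 1991 and 2805 fragments. The groups overlapped, with High library 2 between the Low libraries and High library 1 above both. The means were 167 ± 88.2 CPM (High) and 124 ± 30.9 CPM (Low; SD, n = 2 each), a log2 fold change of 0.43 ± 0.41 (SE). Without High library 2 it was 0.88, and without High library 1 it was -0.24.

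Of the lipid uptake genes, Lpl (ENSMUSG00000015568.16, plus strand of chromosome 8, 68880491 to 68907448) encodes lipoprotein lipase, the secreted enzyme that frees fatty acids from circulating lipoproteins. It was at 81.7 and 16.2 CPM in the libraries labelled High, from 1399 and 398 fragments. In those labelled Low it was at 2.86 and 4.79 CPM, from 39 and 131 fragments. Both High libraries stood above both Low libraries, yet they differed 5.04-fold from each other, the widest gap between the High libraries among the 6 tested genes. The means were 49.0 ± 46.3 CPM (High) and 3.83 ± 1.36 CPM (Low; SD, n = 2 each). The log2 fold change of 3.65 ± 0.97 (SE), or 12.6-fold, was larger than that of Xdh but had a larger error, and edgeR did not call it. It was 4.36 without High library 2 and 2.05 without High library 1.

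Fabp3 (ENSMUSG00000028773.8, plus strand of chromosome 4, 130308595 to 130315463), a cytosolic fatty acid carrier best known from heart and lactating mammary gland, had 8 and 12 fragments in the libraries labelled High. It had 8 and 12 fragments in those labelled Low as well. At 0.467 and 0.489 CPM (High) and 0.588 and 0.439 CPM (Low) the groups overlapped, and a log2 fold change of -0.08 ± 0.88 (SE) leaves a change of nearly 2-fold either way within 1 standard error. Fabp3 overlaps Zcchc17 on the opposite strand and has a processed pseudogene on chromosome 10, so its few fragments are uncertain. Cd36 (ENSMUSG00000002944.15, minus strand of chromosome 5, 17781690 to 17888801), a membrane receptor for long-chain fatty acids, had no fragment in any library.

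The milk protein genes were absent from the counts or nearly so. Wap (whey acidic protein, ENSMUSG00000000381.10, minus strand of chromosome 11, 6635482 to 6638637) and Lalba (α-lactalbumin, the regulatory subunit of lactose synthase, ENSMUSG00000022991.5, minus strand of chromosome 15, 98480400 to 98482721) had no fragment in any of the 4 libraries. Csn3 (κ-casein, which stabilises casein micelles, ENSMUSG00000001622.15, plus strand of chromosome 5, 87925579 to 87932665) had 0 and 0 fragments in the libraries labelled High, and 3 and 0 in those labelled Low. A count of 0 allows up to 3 fragments, which is 0.175 and 0.122 CPM in the High libraries and 0.220 and 0.110 CPM in the Low libraries. The 3 fragments of Csn3 in Low library 1 are at that limit, and the gene overlaps an antisense transcript. A difference between the groups was therefore not detectable at this depth for Cd36, Wap, Csn3 or Lalba.

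Per length of transcript, Plin2 and Mfge8 were the most abundant of the 10 genes, with mean levels of 92.9 and 89.9 FPKM in the libraries labelled High and 123 and 67.4 FPKM in those labelled Low. In the libraries labelled High their order changed between the libraries (47.3 and 138 FPKM for Plin2, 124 and 56.1 FPKM for Mfge8). In those labelled Low, Plin2 (134 and 111 FPKM) was above Mfge8 (79.3 and 55.5 FPKM) in both. In the libraries labelled High, Btn1a1 (9.82 and 24.7 FPKM), Lpl (20.9 and 4.16 FPKM) and Xdh (10.3 and 7.18 FPKM) followed with overlapping ranges. Fabp3 was the lowest of the 6 tested genes there, at 1.05 and 1.10 FPKM. In those labelled Low, Btn1a1 stood alone in the middle at 5.10 and 5.87 FPKM. Fabp3 (1.33 and 0.994 FPKM), Lpl (0.740 and 1.24 FPKM) and Xdh (0.799 and 0.920 FPKM) came after it there, again with overlapping ranges. Plin2 ranked above 88.4% and 96.3% of genes with a fragment by FPKM in the High libraries and above 95.9% and 95.2% in the Low libraries. Xdh ranked above 59.7% and 53.1% in the High libraries and above 31.0% and 32.1% in the Low libraries.

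The High libraries differed from each other in 4 of the 6 tested genes by at least 2-fold, against 18.9% of all tested genes, and the Low libraries in 0 of the 6. For the Low pair no share over all genes was counted. Its biological coefficient of variation was 17.3%, against 42.8% for the High pair, so the 0 is not read as particular to these genes. Lpl and Mfge8 were higher in High library 1, by 5.04-fold and 2.19-fold. Plin2 and Btn1a1 were higher in High library 2, by 2.92-fold and 2.51-fold. Xdh, the other gene of the droplet and membrane contact, was 1.44-fold higher in High library 1, a gap smaller than that of the other 4. Each High library is a clone of its own, so a difference between clones and the spread between replicates cannot be told apart. The keratins Krt8, Krt18 and Krt14 were higher in High library 2 than in High library 1. The summed level of the 9 luminal epithelium markers was 823 and 2156 CPM in the High libraries and 1435 and 1050.5 CPM in the Low libraries, and for the 7 basal markers it was 1302 and 2682 CPM (High) and 2298 and 1771 CPM (Low). The basal sum was mostly Krt14 in the High libraries, and mostly Acta2 in the Low libraries. The part of these markers in the levels of Plin2 and Btn1a1 was not tested.

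**Figure D2:**
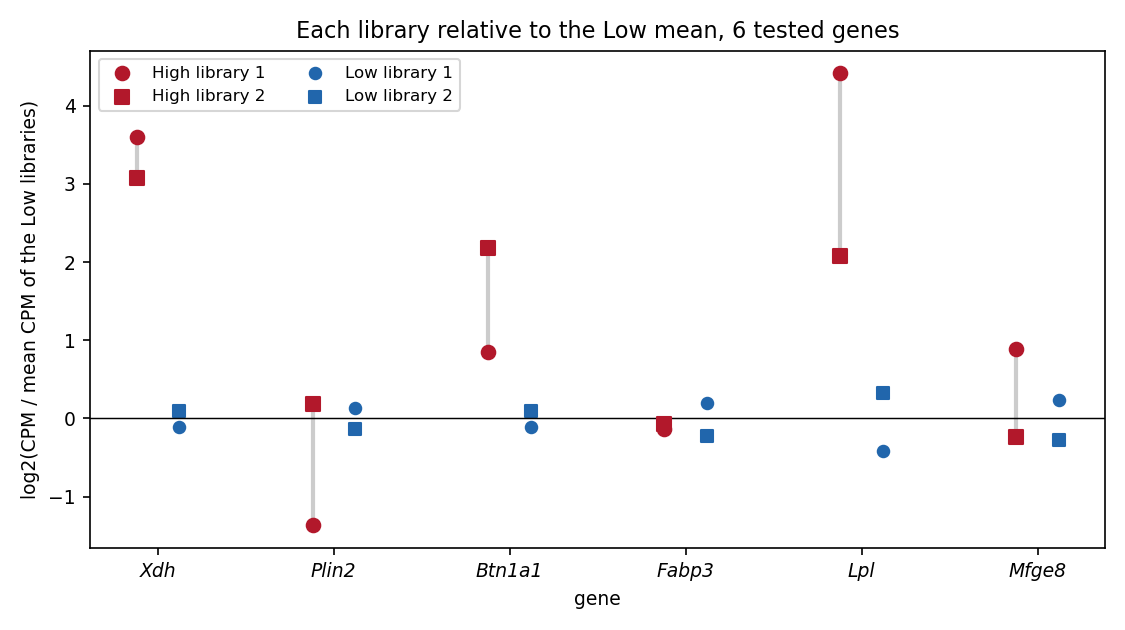
Log2 ratio of each library's CPM to the mean CPM of the Low libraries (y) for the 6 tested genes (x). Grey lines join the High libraries (red) and blue points are the Low libraries. Lpl spans the widest range between the High libraries, and for Plin2 these lie on opposite sides of the Low pair.

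Lpl, Cd36 and Mfge8 are also made by adipocytes, macrophages or endothelial cells, so markers of these cells were read from the same libraries. The 7 adipocyte markers summed to 0.584 and 0.285 CPM in the libraries labelled High and 0 and 0 CPM in those labelled Low. Fabp4, a fatty acid carrier of adipocytes and other cells, made up the whole sum of High library 1. It had 10 and 2 fragments in the libraries labelled High (0.584 and 0.0814 CPM) and 0 and 0 in those labelled Low, and like Lpl it was higher in High library 1. Cfd, the adipocyte protease adipsin, had 0 and 0.122 CPM (High) and 0 and 0 CPM (Low), and Adipoq had 0 and 0.0407 CPM (High) and 0 and 0 CPM (Low). Leptin (Lep), resistin (Retn) and Plin1 were at 0 in every library. The part of adipocyte RNA in the level of Lpl was not tested. The 7 endothelial markers summed to 0.292 and 0.489 CPM (High) and 0.441 and 0.732 CPM (Low), and of these Pecam1, Kdr and Cdh5 were each at or below 0.622 CPM in every library. The 7 macrophage markers in the table summed to 22.1 and 33.3 CPM (High) and 10.4 and 10.4 CPM (Low). Most of that was Csf1r, the receptor for macrophage colony-stimulating factor, at 20.8 and 27.4 CPM in the libraries labelled High and 8.67 and 8.67 CPM in those labelled Low. Its log2 fold change was 1.48 ± 0.31 (SE, edgeR adjusted p = 0.0579). Over the 6 alternatives that kept every library, its adjusted p was 0.00143 to 0.103, past the threshold in 2 of them. Mrc1 was at 0 and 5.13 CPM (High) and 0.588 and 0.549 CPM (Low), and Cd68 at 1.34 and 0.448 CPM (High) and 0.735 and 0.878 CPM (Low). The pan-leukocyte gene Ptprc was at or below 0.293 CPM in every library, and Emr1 and Tyrobp were at 0.

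For the 5 tested members whose log2 CPM spanned more than 1 (all but Fabp3), the genes with the most similar profile over the 4 libraries were looked up. Likeness was the Euclidean distance between log2 CPM values centred on each gene's mean, so it describes 4 points and no more. For Plin2 the nearest were Acaa2, a mitochondrial thiolase of fatty acid oxidation (distance 0.08), Gpn2 (0.13) and the netrin gene Ntn4 (0.14). Acaa2 was at 57.0 and 166 CPM in the High libraries and 171 and 134 CPM in the Low libraries, with the low value in the same library as Plin2. For Btn1a1 they were Plekha6 and the sphingosine phosphatase gene Sgpp2 (both 0.12) and Susd1 (0.13). For Mfge8 they were Fam5b (0.11), Rasgef1a (0.12) and the zinc transporter gene Slc39a13 (0.14). Lpl had a near match in Six2 (0.20), a developmental transcription factor, followed by Chi3l1 (0.58) and Tmem56 (0.60), but all 3 were at or below 0.220 CPM in both Low libraries. The nearest to Xdh were Syt16 and Fam178b (both 0.32) and the steroid dehydrogenase gene Hsd11b2 (0.44), all with no fragment in either Low library and under 1 CPM in the High libraries. The distances of these neighbours of Lpl and Xdh thus rest in part on values near 0. None of these 15 genes was another member.

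Around these genes, 7 lists of pathway genes held 103 further genes, of which 75 were tested. Jak2 and Id2 rose in the libraries labelled High, and Lrp1 fell. That is 2.67% of the tested pathway genes called higher and 1.33% called lower, against 1.14% and 1.33% of all tested genes. Their median log2 fold change was 0.09, beside 0.03 over all tested genes. At an unadjusted p under 0.05 (edgeR), 25 of the 75 passed in either direction, against 18.1% of all tested genes. DESeq2 called 635 of 13446 genes higher (4.72%) and 527 lower. Of the 12987 tested genes, limma-voom called 72 higher and 145 lower. The unadjusted share was not split by direction. The counts of single lists below are to be set beside these shares and counts. All 3 calls were lost when either Low library was left out, and those of Jak2 and Lrp1 also with limma on log2(FPKM + 1).

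In prolactin signalling and the secretory transcription factors, 2 of 13 tested genes rose, 0 fell and 11 did not pass (median 0.21). At an unadjusted p under 0.05 there were 4 higher and 1 lower, DESeq2 called 3 and 1, and limma-voom 2 and 0. Jak2, the kinase bound to the prolactin receptor and to many cytokine receptors, was at 132 and 132 CPM in the libraries labelled High and 45.0 and 58.4 CPM in those labelled Low. The High libraries were level with each other and clear of both Low libraries, a 2.55-fold difference. Its log2 fold change was 1.35 ± 0.23 (SE, edgeR adjusted p = 0.0308, and 4.48e-05 to 0.0599 over 6 alternatives with all libraries kept). Id2, a repressor of differentiation factors that is needed for alveolar development in the mouse, was at 60.0 and 74.6 CPM (High) and 19.0 and 17.9 CPM (Low). It rose 3.65-fold (log2 fold change 1.87 ± 0.25 SE, edgeR adjusted p = 0.0126, and 1.88e-08 to 0.0315 over the same 6 alternatives). Of those that did not pass, the genes with the highest CPM were Nfib (173 and 121 CPM High, 117 and 170 CPM Low), the glucocorticoid receptor gene Nr3c1 (153 and 113 CPM High, 68.6 and 87.2 CPM Low) and Cebpb (94.6 and 66.2 CPM High, 101 and 83.7 CPM Low).

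A further 3 genes of that list were singled out after their values were seen, for their known part in milk protein transcription. The prolactin receptor gene Prlr had 0 and 0 fragments in the libraries labelled High, and 3 and 12 in those labelled Low, and was not tested. Stat5a was at 26.5 and 17.8 CPM (High) and 10.1 and 10.2 CPM (Low) and did not pass. Elf5, a transcription factor of secretory alveolar cells, was at 10.9 and 0 CPM in the High libraries and 1.47 and 1.57 CPM in the Low libraries. It thus had 187 fragments in High library 1 and none in High library 2.

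Of the 12 other milk proteins, 6 had no fragment in any library, among them the caseins Csn1s1, Csn1s2a, Csn1s2b and Csn2. The 3 tested genes did not pass with edgeR (1 higher at an unadjusted p under 0.05, 1 by DESeq2, 0 by limma-voom). B4galt1, the galactosyltransferase that pairs with α-lactalbumin, was at 148 and 120 CPM in the libraries labelled High and 114 and 129 CPM in those labelled Low. The groups of B4galt1 overlapped, and this enzyme also acts outside milk. Wfdc18, a relative of Wap, was at 15.6 and 1.34 CPM (High) and 1.40 and 0.988 CPM (Low). Lactoferrin, Ltf, was at 8.24 and 1.38 CPM (High) and 0.294 and 0.256 CPM (Low). Its log2 fold change was 4.11 ± 1.02 (SE, edgeR adjusted p = 0.0943, and 0.00294 to 0.279 over 6 alternatives with all libraries kept). Wfdc18 and Ltf, like Lpl and Elf5, were higher in High library 1 than in High library 2.

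In lipid uptake and fatty acid activation, 1 of 14 tested genes fell, 0 rose and 13 did not pass (median 0.05). At an unadjusted p under 0.05 there were 2 higher and 5 lower, DESeq2 called 1 and 3, and limma-voom 0 and 1. Lrp1, a large endocytic receptor for lipoproteins and proteases, was at 137 and 69.9 CPM in the libraries labelled High and 368 and 495 CPM in those labelled Low. That was a log2 fold change of -2.06 ± 0.37 (SE, edgeR adjusted p = 0.0443, and 2.8e-06 to 0.0537 over 6 alternatives with all libraries kept). Among the highest in CPM that did not pass were the acyl-CoA synthetases Acsl5 (264 and 528 CPM High, 220 and 258 CPM Low) and Acsl4 (216 and 235 CPM High, 315 and 387 CPM Low). Gpihbp1, which carries lipoprotein lipase on capillary endothelium, had no fragment in any library.

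Of the lipid droplet and triglyceride genes, 0 of 18 tested passed with edgeR (3 higher and 0 lower at an unadjusted p under 0.05, 2 higher by DESeq2, 0 by limma-voom), with a median of 0.05. The highest in CPM were the acyltransferase genes Agpat6 (277 and 324 CPM High, 240 and 230 CPM Low) and Agpat1 (63.8 and 99.9 CPM High, 125 and 99.8 CPM Low), and the phosphatase gene Lpin2 (35.7 and 42.4 CPM High, 48.4 and 54.5 CPM Low). The fat-droplet genes Plin1 and Cidea were at 0 in every library. In de novo fatty acid synthesis, 0 of 11 passed (0 higher and 3 lower at an unadjusted p under 0.05, 2 lower by DESeq2, 0 by limma-voom), with a median of -0.25. The desaturase gene Scd2 was at 1024 and 1069 CPM (High) and 1631 and 1859 CPM (Low), Scd1 at 453 and 597 CPM (High) and 575 and 674 CPM (Low), and the synthase gene Fasn at 338 and 571 CPM (High) and 605 and 631 CPM (Low).

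Among nuclear receptors of lipid genes, 0 of 9 passed with edgeR (3 higher and 0 lower at an unadjusted p under 0.05, 0 by DESeq2 and 0 by limma-voom). The median was 0.67, beside 0.03 over all tested genes, and 8 of 9 were above 0. Rxra, the common partner receptor, was at 66.3 and 68.8 CPM (High) and 61.2 and 50.6 CPM (Low). Rxrb was at 39.7 and 39.0 CPM (High) and 54.9 and 42.1 CPM (Low). The fatty acid sensor gene Ppard was at 40.01 and 107 CPM (High) and 34.5 and 26.5 CPM (Low), and like Plin2 and Btn1a1 it was higher in High library 2 than in High library 1.

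Paralogs of the 10 genes also yielded 0 calls among 12 tested (3 higher and 1 lower at an unadjusted p under 0.05, 1 higher and 1 lower by DESeq2, 0 by limma-voom), with a median of 0.43. Fabp5, a fatty acid carrier of epithelia, was at 43.8 and 84.5 CPM in the libraries labelled High and 206 and 168 CPM in those labelled Low. Both High libraries lay below both Low libraries, with a log2 fold change of -1.54 ± 0.34 (SE, edgeR adjusted p = 0.0758). Over the 6 alternatives that kept every library, the adjusted p of Fabp5 was 0.000865 to 0.081, past the threshold in 3 of them. Scarb1, the lipoprotein receptor related to Cd36, was at 115 and 128 CPM (High) and 120 and 109 CPM (Low). Wfdc2, which shares the WAP domain, was at 97.4 and 226 CPM (High) and 97.6 and 49.7 CPM (Low).

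**Figure D3:**
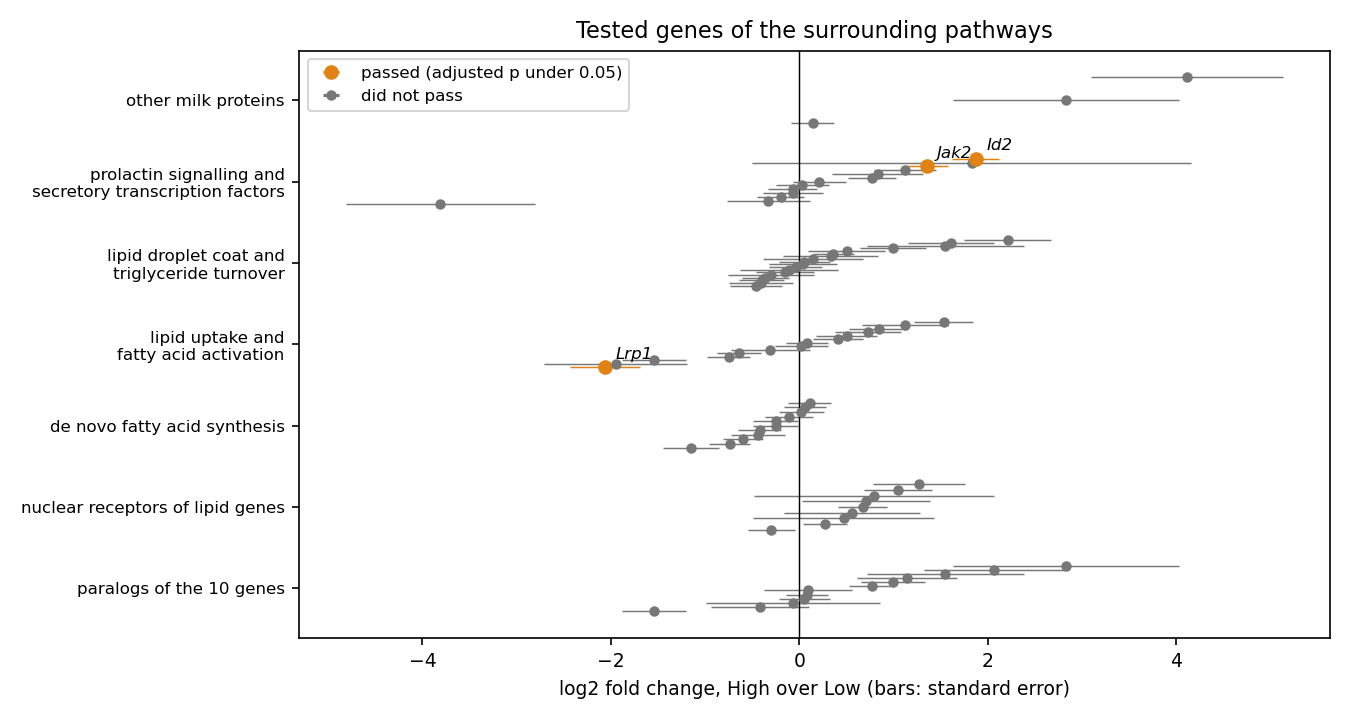
Log2 fold change, High over Low, with its standard error (x), of the tested genes in each of the 7 pathway lists (y), with genes past the threshold in orange and the others in grey. Jak2 and Id2 lie to the right of 0 and Lrp1 to the left, while no tested gene of the other lists passed.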

How the data were processed

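RNA from 2 libraries per group was sequenced. Tools named upstream are cutadapt 1.5, TopHat2 2.0.13 and Cuffdiff 2.2.1, with build mm10, per the submitters' processing notes. The sources used here give neither the gene annotation nor the strand setting, so overlapping genes on opposite strands cannot be told apart. The deposited table gives an estimated count of fragments for each gene and library, which was rounded to whole numbers (99.18% were whole within 1e-06). It also gives the authors' FPKM, scaled for depth and length per the file headers. Libraries are numbered within a condition, and which clone is High library 1 or 2 is not given. Nothing in the labels says that the Low duplicates came from separate cultures. The p-values therefore reflect the variation among these 4 libraries alone, part of which may be technical.

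The two-sided quasi-likelihood test of edgeR 4.0.16 (run in R 4.3.3 beside limma 3.58.1) was applied with TMM scaling. Genes with low counts were left out by filterByExpr, with a minimum count of 10. Over the 12987 genes kept, p-values were adjusted by Benjamini-Hochberg, with a threshold of 0.05. Each SE of a log2 fold change is its absolute value divided by the square root of the test's F statistic. It is therefore approximate. The steps were run on simulated data that had the same spread in both groups, unlike the High and Low pairs here. That run therefore cannot show how they perform at the unequal spread of these libraries. Alternatives were DESeq2 1.42.0, relative log expression scaling, limma-voom, limma on log2(FPKM + 1), no filter, a replicate block and each library left out. An exact permutation test of 2 against 2 libraries cannot reach 0.05 and was not used. The log2 CPM values behind the likeness measure used a prior count of 2. Floors of 3 fragments cover counting error only. The 10 genes, the gene lists and the tests were chosen with earlier results of these data known. Named genes are the 10 members, each pathway gene past the threshold, the 3 tested genes of each list with the highest CPM among those that did not pass, and the 3 markers of each cell type with the highest CPM. A gene that this rule would name is not reported here.

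Gene positions are from GENCODE M21 (mm10) and promoters from RefSeq (GRCm38.p6).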

Additional observations from a re-analysis of the deposited data

How the results depend on the processing

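Of the counts over all genes, relative log expression scaling gave 146 higher and 175 lower, beside 148 and 173 as reported. DESeq2 gave 635 and 527, no filter on low counts 437 and 377, limma-voom 72 higher and limma on log2(FPKM + 1) 82 higher. Leaving out a library gave 0 to 1406 higher and 0 to 1069 lower, the 0 arising when either Low library was left out. A lone sample is then assumed to vary like the other group's pair, whose spread is wide in High and narrow in Low. Among pathway genes, DESeq2 called 8 higher and 6 lower, no filter 5 and 4, limma on log2(FPKM + 1) 1 and 0, and a library left out 0 to 14 and 0 to 8. Among the 10 members, DESeq2 called 3 higher, and a library left out gave 0 to 4 higher and 0 to 1 lower. For these counts the cause was not tested. The replicate numbers are names only, and deviations of same-numbered libraries correlated at -0.139 across genes. With the replicate block, 223 genes were called higher, 2 pathway genes lower and 2 members higher. Of 387 values of 39 single genes under the alternatives, 329 stayed on the same side of the threshold, 12 fell short of it and 45 newly passed it, while 1 reversed. That was Krt8, with a log2 fold change of 0.02 as reported, -1.29 without High library 2 and 0.69 without High library 1. Reversed here means a change of sign in a gene past the threshold in either fit. Other changes of sign are among the 329. Examples are Plin2 (-0.39 as reported, 0.19 without High library 1) and Mfge8 (0.43 as reported, -0.24 without High library 1). With 2 residual degrees of freedom, changes of genes whose High libraries differ are poorly resolved.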
